A study of Mus musculus with 2688 samples.

Results

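The comparison set single microglia of the embryonic mouse forebrain against single microglia of the 3-week mouse cortex. Its members were the sorted wells labelled embryonic forebrain (replicates 1 to 4) and 3-week cortex (replicates 1 to 3) that had at least 500 detected genes and at most 20% of their counts from mitochondrially encoded genes. These were 352 of the 2402 cells kept in the whole series: 182 from forebrain (47, 44, 45 and 46 in replicates 1 to 4) and 170 from cortex (58, 58 and 54). The series profiled microglia of healthy CNS regions at embryonic age, 3 weeks and 16 weeks by SmartSeq2, which makes full-length cDNA libraries from 1 cell per well of a 384-well plate. All cells came from untreated CD1 mice, an outbred strain, with no engineered allele or agent named in the labels, and the series design counts the replicates as mice. The embryonic day and any pooling of embryos are not given in the sources used here. Cells had been stained for CD11b, CD45, Ly6C, Ly6G and CD206 and sorted as microglia. All forebrain cells lay on 1 plate and all cortex cells on another, so age, dissected region and plate cannot be told apart. By the sex-linked reads given below, forebrain cells were of both sexes and cortex cells looked female. In the full comparison the mix of sexes therefore goes with age too.

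Microglia are the macrophages that live in the brain and spinal cord. They arise from yolk sac progenitors that enter the neural tube early in development, divide there, take up dying cells and prune synapses, and they depend on signalling through the receptor Csf1r. During postnatal life they acquire a homeostatic expression programme with surface and secreted markers such as Tmem119, P2ry12 and Sparc, while Apoe, Spp1, Lpl and Igf1 are known from phagocytic microglia of the developing white matter and from microglia near plaques and lesions.

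Summed per replicate, forebrain held 11682617 to 16002461 counts and cortex 7146319 to 8870000. The median cell had 77047 to 298684 counts in the forebrain replicates and 112046 to 160219 in the cortex replicates. Gene counts per spike-in count were 542 to 952 in forebrain and 505 to 563 in cortex. The 5 deepest cells held 23.95% to 31.3% of a forebrain replicate and 18.8% to 20.0% of a cortex replicate. In such sums, fewer cells expressing a gene and less RNA of it per cell cannot be told apart. Cells with reads of Y-linked genes only and cells with Xist only occurred in every forebrain replicate: 70 of 182 forebrain cells had reads of Y-linked genes only, 67 had Xist only, 8 had both and 37 had neither. Cortex had 0 of 170 cells with Y-linked reads only, 148 with Xist only, 1 with both and 21 with neither. The 4 Y-linked genes Ddx3y, Eif2s3y, Kdm5d and Uty were lower in cortex, and several counts below are therefore also given for cells with Xist and no Y-linked reads. These were 15, 5, 26 and 21 cells in the forebrain replicates and 51, 48 and 49 in the cortex replicates. Where a call was lost among them, sex and the smaller number of forebrain cells cannot be told apart. Among those cells 0 purinergic, Fc and lectin receptor, chemokine, complement, glycolysis, actin or oxidative phosphorylation genes passed in edgeR, and Abca1, Ftl1 and Selplg were the genes that passed on the lists for clearance, iron and adhesion.

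Of the tested genes on each list, 13 of 20 homeostatic genes were higher in 3-week cortex, while 10 of 22 genes of phagocytic microglia, 11 of 20 G2/M genes and 23 of 79 ribosomal protein genes were lower. In total 483 of 12339 genes tested (3.91%) passed an adjusted p of 0.05 in edgeR's quasi-likelihood test, 195 of them higher in cortex (1.58%) and 288 lower (2.33%). Without replicate 1, 2 or 3 of cortex the count was 278, 297 and 252. Among cells with Xist and no Y-linked reads it was 48 of 10724, and of the 456 genes of the first count that could be tested there, 456 kept their direction and 47 passed.

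Of 20 homeostatic microglia genes, 13 were higher in cortex and 0 lower, with a median fitted log2 change of 0.72 against -0.05 for all genes tested. In 15 of the 20 every cortex replicate was above every forebrain replicate, as in 8.61% of all genes tested. Cst3, which encodes the secreted cysteine protease inhibitor cystatin C (chromosome 2, 148871722 to 148875692, GRCm38), stood at 6894, 6984, 6250 and 5936 CPM in the forebrain replicates and at 55585, 62063 and 56020 CPM in the cortex replicates. CPM is the read count of a gene relative to the sample's total, with totals scaled by the TMM method. Every cortex replicate lay far above every forebrain replicate, and the fitted change was 8.88-fold (log2 3.15 ± 0.08 SE, edgeR adjusted p = 1.76e-07).

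Selplg, the adhesion ligand PSGL-1 (chromosome 5, 113818536 to 113832644), had 891, 755, 687 and 963 CPM in forebrain and 8914, 8528 and 9602 CPM in cortex. Its groups did not overlap, and the fitted change was 10.9-fold (log2 3.45 ± 0.13 SE, edgeR adjusted p = 3.05e-06). Tmem119, a membrane protein used to tell microglia from other macrophages, lies close by on the same chromosome (113793729 to 113800516). Its levels were 1361, 1496, 1201 and 1714 CPM in forebrain and 7822, 8237 and 9417 CPM in cortex, again without overlap, a 5.88-fold change (log2 2.56 ± 0.13 SE, edgeR adjusted p = 3.28e-05).

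Receptors of the same programme rose by less. P2ry12, the ADP receptor that steers microglial processes, had 5122, 6426, 5915 and 6042 CPM in forebrain and 8427, 10302 and 10063 CPM in cortex, and rose 1.63-fold (edgeR adjusted p = 0.00747). Cx3cr1, the receptor for neuronal fractalkine, rose 1.63-fold, and Csf1r, the receptor for CSF1 and IL-34, rose 1.66-fold (adjusted p in edgeR 0.00323 and 0.00372). For these receptors too, the lowest cortex replicate lay above the highest forebrain replicate.

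Others of the homeostatic genes that rose were Slc2a5, a fructose transporter, at 2.88-fold, Olfml3 at 2.70-fold, Slco2b1, an organic anion transporter, at 2.34-fold, the matrix glycoprotein Sparc at 2.23-fold, P2ry13 at 1.58-fold and the lectin Siglech at 1.56-fold. Of the 13, only P2ry13 lost its call without 1 replicate (edgeR adjusted p up to 0.0692, without cortex replicate 2 or 3). The other 7 members did not pass. Sall1, a transcription factor that marks microglia, had 322, 512, 398 and 443 CPM in forebrain and 774, 401 and 351 CPM in cortex (edgeR adjusted p = 0.722). Its groups overlapped, as did those of the lipid receptor Trem2, with means of 1480 ± 309 CPM (SD, n = 4) and 1513 ± 361 CPM (SD, n = 3). Gpr34, Fcrls, Tgfbr1, Crybb1 and Bhlhe41 had edgeR adjusted p-values of 0.0863 to 0.71. Among cells with Xist and no Y-linked reads 6 of the 20 were higher and 0 lower, with a median log2 change of 0.71. With every cell thinned to equal reads 15 were higher and 1, Crybb1, was lower.

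**Figure D1:**
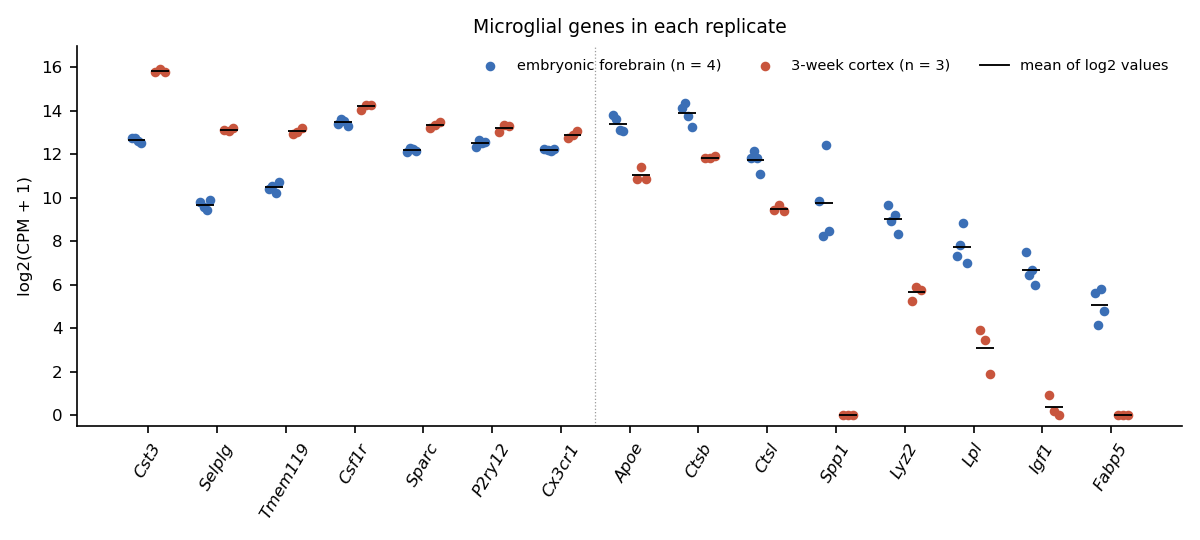
Level of 7 genes that rose and 8 genes that fell in each replicate, as log2 of CPM plus 1 (y axis), with embryonic forebrain and 3-week cortex replicates as points and the group's mean of the log2 values as a bar. Cst3, Selplg and Tmem119 show the widest gaps among the homeostatic genes plotted, and Spp1 and Fabp5 sit at 0 in all 3 cortex replicates.

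Reads in single cells were then counted. After each cell had been thinned to 44117 reads, leaving 132 forebrain and 127 cortex cells, Tmem119 had reads in 85.7% to 92.9% of cells of the forebrain replicates and in 100% of cells of each cortex replicate. The median number of thinned reads in cells with reads was 55 in forebrain and 375 in cortex, so forebrain cells with the transcript had fewer reads of it. Selplg gave 72.4% to 95% of forebrain cells and 100% of cortex cells with reads, and medians of 31.5 and 381 reads.

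Of 29 tested genes on the list of microglia and macrophage transcription factors, 3 were higher in cortex and 0 lower (median log2 change 0.29). Mef2a rose 2.57-fold and the AP-1 subunit Junb 3.74-fold (adjusted p in edgeR 0.0143 and 0.0134). The Mef2a call was lost without cortex replicate 3 (0.058) and the Junb call without cortex replicate 1 (0.0656). Spi1, which encodes the lineage factor PU.1, had means of 359 ± 49.1 CPM (SD, n = 4) and 435 ± 38.3 CPM (SD, n = 3) and did not pass (edgeR adjusted p = 0.468). Of 18 tested genes of TGF-beta signalling, the pathway that maintains homeostatic microglia, 0 passed in edgeR, with a median log2 change of 0.66. Of these 18, 6 had an unadjusted p under 0.05 and 6 passed in DESeq2, against 2057 and 1336 of all 12339 genes tested.

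Surface receptors made up the next group. Of 24 tested chemokine and cytokine receptors 8 were higher and 1 lower, with a median log2 change of 0.63. Beside Csf1r and Cx3cr1 the higher ones were Il21r at 3.59-fold, Il6ra at 2.31-fold, Csf3r, the G-CSF receptor, at 1.97-fold, Ifngr1 at 1.84-fold, Tnfrsf1a at 1.74-fold and Ccr6 at 15.0-fold. Ccr6, the receptor for CCL20, had 26.3, 13.6, 3.42 and 59.8 CPM in forebrain and 478, 175 and 512 CPM in cortex (edgeR adjusted p = 0.0276), and its reads occurred in 3.57% to 17.5% of forebrain cells and in 24.4% to 70% of cortex cells. Cortex replicate 2 was the lowest of the 3 in both measures. The Ccr6 call was lost without 1 replicate in 4 of 7 fits (adjusted p up to 0.094) and that of Tnfrsf1a in 6 of 7 (up to 0.166). Il6ra and Csf3r each lost theirs in 2 of 7 (edgeR adjusted p up to 0.077 and 0.0702) and Ifngr1 in 1 (0.0515). Cxcr2 was lower, with 174, 36.7, 56.2 and 107 CPM in forebrain and 0, 3.04 and 0 CPM in cortex. Its call was lost in 5 of 7 such fits. Among cells with Xist and no Y-linked reads 0 receptors passed in edgeR.

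Of 7 tested purinergic and adenosine receptors and their enzymes, P2ry12, P2ry13 and the ATP-degrading ectoenzyme Entpd1 (1.73-fold) rose and 0 fell. Of 19 Fc and lectin receptors, Siglech and the Fc gamma receptor Fcgr1 (2.13-fold) rose, and Cd300lf (7.19-fold) and Ly9 (22.5-fold) fell. The calls of Entpd1 and Fcgr1 were each lost without either of 2 cortex replicates, with edgeR adjusted p up to 0.0929 and 0.0779, and those of Cd300lf and Ly9 in 4 and 3 of 7 fits without 1 replicate (up to 0.0975 and 0.0706). Of 12 tested complement genes, C1qa rose 1.85-fold, from 2502, 2744, 2364 and 2499 CPM in forebrain to 4375, 4335 and 5284 CPM in cortex (edgeR adjusted p = 0.0022). The other chains of the same C1q molecule did not pass: C1qb had means of 4023 ± 308 and 4920 ± 498 CPM, and C1qc of 3107 ± 219 and 3255 ± 73.7 CPM (SD, n = 4 and 3), with adjusted p-values in edgeR of 0.187 and 0.81. The other complement gene that passed, the integrin subunit Itgb2, lost its call in 6 of 7 fits without 1 replicate.

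MHC class I and class II genes gave 1 call per list, and interferon genes gave 0. Of 14 tested MHC class I genes H2-T23 rose, and of 8 class II genes H2-Ob rose, from 3.53, 15.3, 0.941 and 0.702 CPM to 89.3, 194 and 64.9 CPM. Both calls were fragile, being lost in 7 and 6 of 7 fits without 1 replicate, though H2-Ob passed among cells with Xist and no Y-linked reads. The class I median log2 change was 0.83, and 5 of the 14 had an unadjusted p under 0.05 in edgeR. In 8 of the 14 every cortex replicate was above every forebrain replicate, as in 8.61% of all genes tested. Class II genes had a median of 0.94, with 2 of 8 without overlap in that direction. They summed to 126 to 155 CPM in forebrain and 305 to 489 CPM in cortex, while class I sums overlapped. H2-Aa, a chain of the main class II molecule, was at or under 0.337 CPM in every replicate. Of 18 type I interferon response genes 0 passed in edgeR and 0 in DESeq2, 0 had an unadjusted p under 0.05, and their median log2 change was 0.04.

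Of 22 tested genes of the phagocytic and disease-associated programme 10 fell and 0 rose, with a median log2 change of -2.85. Apoe, a lipid carrier (chromosome 7, 19696109 to 19699188), had 14131, 12480, 8998 and 8563 CPM in forebrain and 1833, 2706 and 1854 CPM in cortex. Every forebrain replicate lay above every cortex replicate, and Apoe was 5.18-fold lower in cortex (log2 -2.37 ± 0.22 SE, edgeR adjusted p = 0.000738). Among thinned cells, Apoe had reads in 100% of forebrain cells and in 73.9% to 85% of cortex cells, with median reads of 374.5 and 77.5 where present.

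The lysosomal cysteine proteases of the list moved the same way. Ctsb had 18089, 21008, 13780 and 9847 CPM in forebrain and 3646, 3587 and 3838 CPM in cortex, 4.25-fold lower (edgeR adjusted p = 0.00143). Ctsl had means of 3508 ± 949 CPM (SD, n = 4) and 728 ± 71.3 CPM (SD, n = 3), 4.82-fold lower. Neither gene's groups overlapped.

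Spp1, the secreted phosphoprotein osteopontin (chromosome 5, 104435118 to 104441050), had 938, 300, 5506 and 349 CPM in forebrain and 0 CPM in each cortex replicate. Set against a floor of 3 counts over the cortex group, the forebrain mean of 1773 CPM was at least 14322-fold higher (edgeR adjusted p = 0.0114). Replicate 3 raised this mean, so the bound is smaller for the other forebrain replicates. This bound and those given below for other genes at 0 CPM in cortex compare means and allow for counting error only. Forebrain replicate 3 held most of the Spp1 reads, but reads of it occurred in 15% to 37.9% of cells in each forebrain replicate and in 0 of 127 cortex cells. For counting error only, that allows up to 2.36% of cells with a read at this depth. Fabp5, a fatty acid binding protein, had 47.6, 16.5, 55.7 and 26.8 CPM in forebrain and 0 CPM in cortex, at least 296-fold lower (edgeR adjusted p = 0.00417).

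Other members were near 0 in cortex without being absent. Igf1, the growth factor that supports myelination (chromosome 10, 87858265 to 87937042), had 182, 86.9, 103 and 62.0 CPM in forebrain and 0.898, 0.145 and 0 CPM in cortex, 291-fold lower (edgeR adjusted p = 0.00208). Its fitted log2 change of -8.18 was -10.47 without cortex replicate 1. Lpl, lipoprotein lipase, had 159, 228, 451 and 128 CPM in forebrain and 14.4, 10.1 and 2.74 CPM in cortex, 26.6-fold lower (edgeR adjusted p = 0.00589). Lyz2, lysozyme, had 822, 482, 594 and 322 CPM in forebrain and 37.3, 59.4 and 54.0 CPM in cortex, 11-fold lower (edgeR adjusted p = 0.00102).

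In cells, Igf1 had reads in 27.5% to 31.4% of forebrain cells and in 0% to 2.5% of cortex cells. Lpl had reads in 30% to 40% and 0% to 2.5%, and Lyz2 in 64.3% to 86.2% and 6.52% to 17.1%. For all 3 genes every forebrain replicate had a higher share than every cortex replicate. The tetraspanin Cd63 and the lectin Lgals1 were the last of the 10 genes that fell, at 3.38-fold and 10.1-fold, and Lgals1 lost its call in 5 of 7 fits without 1 replicate.

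Members of the list that did not pass included Trem2, described above, Gpnmb (15.1, 64.2, 4.71 and 1.70 CPM in forebrain, 0.112, 0.723 and 3.10 CPM in cortex), Axl (adjusted p = 0.146) and Csf1 (0.0631), both values from edgeR. Among cells with Xist and no Y-linked reads 3 of the 22 passed, Apoe, Lyz2 and Ctsl, all lower. The first count stayed between 9 and 11 of the list without any 1 replicate.

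**Figure D2:**
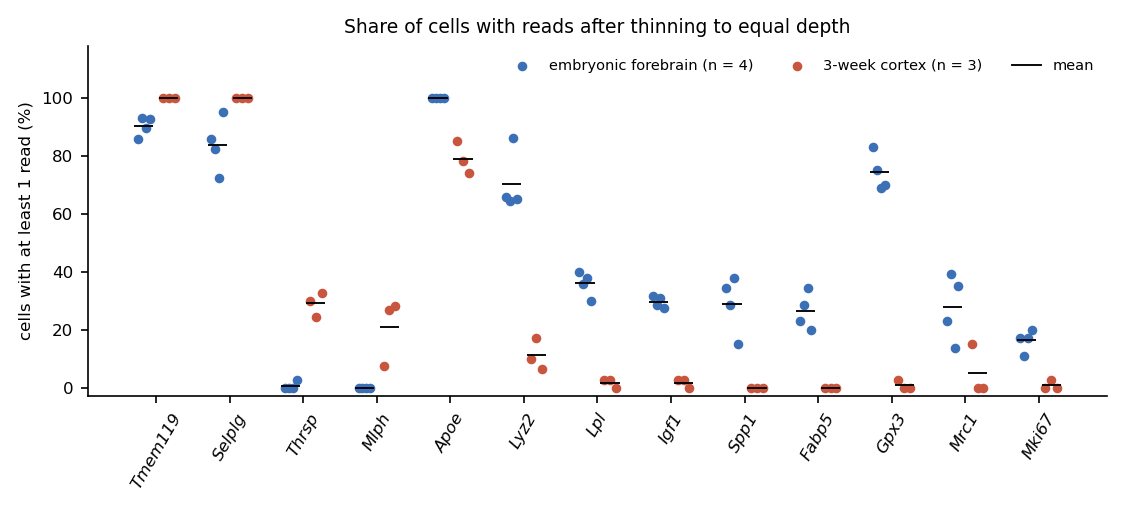
Share of cells with at least 1 read of a gene after thinning to equal depth (y axis, percent) in each replicate, for genes higher or lower in 3-week cortex and for Mrc1 and Mki67, which did not pass. Each point is 1 replicate and each bar the group's mean, and Spp1 and Fabp5 lie at 0% in all 3 cortex replicates while Apoe is at 73.9% or above.

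The lysosome list split in both directions. Of 30 members 4 rose and 7 fell, with a median log2 change of -0.24. Cathepsin S, encoded by Ctss, had 3834, 4267, 3432 and 3560 CPM in forebrain and 7567, 7982 and 7771 CPM in cortex, 2.06-fold higher (edgeR adjusted p = 0.000673). Cathepsin H rose with it, Ctsh being 2.77-fold higher, as did, at 1.46-fold, the lysosomal membrane protein Laptm5. Against these, Ctsb and Ctsl fell as described above, and the glucuronidase Gusb fell 3.11-fold, Ctsz 2.18-fold, Lamp1 1.92-fold, Npc2 1.84-fold and Lamp2 1.75-fold. Gusb had 1143, 1110, 1113 and 1025 CPM in forebrain and 275, 353 and 432 CPM in cortex, without overlap. The calls of Laptm5 and Lamp2 were lost in 5 and 6 of 7 fits without 1 replicate.

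Among 16 tested genes for clearance of apoptotic cells, the bridging ligand Gas6 (2.83-fold), the cholesterol exporter Abca1 (3.67-fold) and the scavenger receptor Scarb1 (5.78-fold) fell, and the engulfment adaptor Elmo1 rose 2.58-fold. Abca1 had 1146, 1110, 736 and 847 CPM in forebrain and 298, 240 and 246 CPM in cortex (edgeR adjusted p = 0.00118). Mertk, the receptor for Gas6, had means of 433 ± 107 CPM (SD, n = 4) and 745 ± 137 CPM (SD, n = 3) and did not pass (edgeR adjusted p = 0.0787). The calls of Gas6, Abca1, Scarb1 and Elmo1 held without any 1 replicate. Of 17 tested chemokines and cytokines, Ccl9 (3.75-fold), Mif (5.08-fold) and Igf1 fell, and the transmembrane chemokine Cxcl16 rose. Ccl9 had 370, 396, 363 and 236 CPM in forebrain and 79.1, 109 and 85.0 CPM in cortex, while the calls of Mif and Cxcl16 were lost in 7 and 5 of 7 such fits. Ly86, a partner of a toll-like receptor homologue, fell 1.91-fold and was the only one of 19 tested genes of its list to pass.

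Of 20 G2/M genes 20 had a negative fitted change, 11 passed, and 18 had no overlap between groups, with a median log2 change of -6.68. Over all genes tested 10.6% were without overlap in that direction. Of 19 tested S phase genes 19 had a negative change and 2 passed, Rrm2 and the helicase subunit Mcm7.

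Rrm2, the ribonucleotide reductase subunit made in S phase (chromosome 12, 24708241 to 24714146), had 29.1, 34.1, 113 and 132 CPM in forebrain and 0, 0.289 and 0.119 CPM in cortex. Its 3 reads in cortex put the ratio of summed, depth-scaled reads at 652-fold lower with a 95% counting interval of 223 to 3165, which covers counting error only (edgeR adjusted p = 0.0022). Top2a, the topoisomerase that untangles sister chromatids (chromosome 11, 98992943 to 99024189), had 81.6, 36.3, 83.2 and 188 CPM in forebrain and 0.898, 2.17 and 0 CPM in cortex, 96.5-fold lower (edgeR adjusted p = 0.012, and 0.052 without cortex replicate 1).

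Mitotic genes followed the same split. Ccnb2, cyclin B2, had 50.3, 60.5, 35.2 and 37.8 CPM in forebrain and 0.112, 2.46 and 0 CPM in cortex (edgeR adjusted p = 0.0419). The Ccnb2 call was lost in 6 of 7 fits without 1 replicate. Bub1, a kinase of the spindle checkpoint, had 18.4, 12.9, 12.5 and 29.7 CPM in forebrain and 0 CPM in cortex, at least 148-fold lower (edgeR adjusted p = 0.0112). Mki67, the proliferation marker Ki-67, had 64.1, 37.3, 64.5 and 87.9 CPM in forebrain and 0, 5.49 and 0 CPM in cortex and did not pass (edgeR adjusted p = 0.10), with all its cortex reads in replicate 2. The other G2/M genes that passed were Aurkb, Birc5, Bub1b, Cenpe, Kif20b, Nusap1, Plk1 and Tpx2. Without 1 replicate the count of G2/M genes ranged from 6 (without cortex replicate 3) to 12, and among cells with Xist and no Y-linked reads 14 could be tested in edgeR and 0 passed, with a median log2 change of -5.34.

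Cells with reads of 5 or more of the 20 G2/M genes after thinning were counted as cycling. By this measure 20 of 132 forebrain cells and 0 of 127 cortex cells were cycling. The shares were 17.1%, 14.3%, 10.3% and 17.5% in the forebrain replicates (14.8% ± 3.31, SD, n = 4) against 0% in each of 3 cortex replicates, and the difference had a two-sided exact permutation p of 0.0286, the smallest that 35 splits of 7 samples allow. It remained 0.0286 after adjustment over the 3 cell measures tested this way. A further fit left out cells with reads of 5 or more G2/M genes before thinning. These were 7 cells of each forebrain replicate and 1 cell of cortex replicate 2. In that fit 319 genes passed in place of 483, and 12 homeostatic genes rose and 9 phagocytic genes fell. Cell cycle inhibitors and p53 targets gave 0 calls among 17 tested in edgeR. Of them 1 had an unadjusted p under 0.05 and 1 passed in DESeq2, against 2057 and 1336 of all 12339 genes tested.

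**Figure D3:**
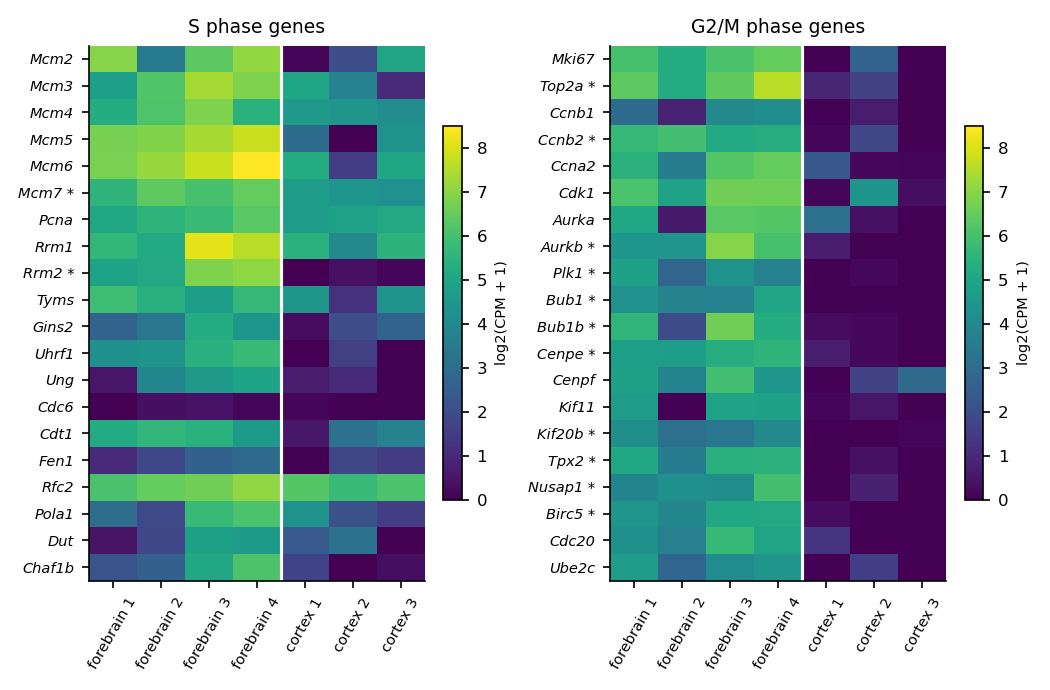
Heat map of log2 of CPM plus 1 for 20 S phase and 20 G2/M genes (rows) in the 4 embryonic forebrain and 3 3-week cortex replicates (columns), with an asterisk at genes lower in cortex at an adjusted p under 0.05. Most G2/M genes are near 0 in cortex, with higher values of Mki67 and Cdk1 in cortex replicate 2, Cenpf in replicates 2 and 3, and Aurka and Ccna2 in replicate 1.

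Since these genes moved together, their promoters are shown. CCAAT boxes, bound by NF-Y, and the cell cycle homology region (CHR) TTTGAA, bound by the DREAM complex, are known elements of G2/M promoters. The 120 bases before the transcription start are given 5′ to 3′ on the strand of the gene, from RefSeq on GRCm38.p6, with CCAAT boxes (CCAAT, or ATTGG on the other strand) and the CHR (TTTGAA, or TTCAAA) in capitals. Top2a is at chr11:99024190-99024309 (minus strand), Ccnb2 at chr9:70421555-70421674 (minus), Bub1 at chr2:127831860-127831979 (minus) and Rrm2 at chr12:24708134-24708253 (plus).
Top2a: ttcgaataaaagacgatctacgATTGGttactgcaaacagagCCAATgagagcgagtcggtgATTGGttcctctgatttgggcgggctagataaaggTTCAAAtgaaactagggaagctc
Ccnb2: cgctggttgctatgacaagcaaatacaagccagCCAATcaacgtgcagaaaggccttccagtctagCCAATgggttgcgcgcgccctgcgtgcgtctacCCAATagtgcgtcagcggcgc
Bub1: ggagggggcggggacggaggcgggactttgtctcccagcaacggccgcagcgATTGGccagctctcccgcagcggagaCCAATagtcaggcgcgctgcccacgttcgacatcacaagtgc
Rrm2: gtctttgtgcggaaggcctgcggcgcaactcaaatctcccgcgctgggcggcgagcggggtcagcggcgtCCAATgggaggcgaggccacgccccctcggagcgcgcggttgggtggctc

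Each of the 4 windows held at least 1 CCAAT box, and Top2a and Ccnb2 held 3 each. Of the 9 G2/M genes with an entry that passed, only the Top2a, Ccnb2 and Bub1 windows held 2 or more CCAAT boxes. Windows of the same length at Bub1b, Cenpe and Plk1, which also passed, held 1 CCAAT box each. Those at Kif20b, Nusap1 and Birc5 held neither element. In the 250 bases before the start, on both strands and counting 1 start per symbol, CCAAT occurred in 34.5% of 27025 promoters. It occurred in 14 of the 17 G2/M genes with a promoter entry (82.4%), in 6 of the 9 with an entry that passed the test (66.7%) and in 10 of 17 S phase genes (58.8%). Windows with 2 or more CCAAT boxes made up 10.5% of all promoters, 58.8% of G2/M and 29.4% of S phase promoters. TTTGAA occurred in 16.3% of all, 41.2% of G2/M and 11.8% of S phase promoters, and the E2F core TTCCCGC in 3.84%, 0% and 35.3%. No S or G2/M promoter had different motifs overlapping. Of the 9 G2/M genes with an entry that passed, 2 (22.2%) held TTTGAA and 3 (33.3%) had 2 or more CCAAT boxes. No test was made of these shares.

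Of 79 tested cytosolic ribosomal protein genes (of 84) 23 fell and 0 rose, with a median log2 change of -1.11. Rpl4, a protein of the large subunit, had 1411, 1292, 1260 and 1101 CPM in forebrain and 363, 356 and 268 CPM in cortex, 3.85-fold lower (edgeR adjusted p = 0.000438). Rps3, of the small subunit, fell 2.64-fold, and neither gene's groups overlapped. Without 1 replicate 12 to 17 ribosomal genes passed, and among cells with Xist and no Y-linked reads 4 did (median log2 change -1.23). Many ribosomal protein genes have near-identical processed copies, so their counts are uncertain where reads could be shared.

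Of 81 tested nuclear genes of oxidative phosphorylation (of 87) 8 fell and 0 rose (median log2 change -0.80). Cox4i1, a subunit of cytochrome c oxidase, fell 2.40-fold. Without 1 replicate 1 to 4 of these genes passed, so most of the 8 calls rested on all 7 replicates. Of 17 tested glycolysis genes 4 fell and 0 rose (median -0.83): Tpi1 at 3.95-fold, Ldha at 3.33-fold, Pkm at 2.86-fold and Aldoa at 1.78-fold. Ldha, lactate dehydrogenase, had 414, 439, 526 and 499 CPM in forebrain and 137, 127 and 159 CPM in cortex. Of these only Ldha kept its call without any 1 replicate, the others each losing it without either of 2 cortex replicates (edgeR adjusted p up to 0.0703). Of 19 tested genes of cholesterol synthesis 0 passed in edgeR, 3 had an unadjusted p under 0.05 and 2 were lower in DESeq2. Among all 12339 genes tested, 2057 had an unadjusted p under 0.05 and 802 were lower in DESeq2.

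Among 21 actin cytoskeleton genes 6 fell and 0 rose (median log2 change -0.61). The actin monomer binding thymosin Tmsb4x had 4810, 4060, 4593 and 3664 CPM in forebrain and 1886, 1777 and 1758 CPM in cortex, 2.37-fold lower (edgeR adjusted p = 0.000749). Cofilin, encoded by Cfl1, fell 2.15-fold, its cofactor Wdr1 1.99-fold and beta-actin, encoded by Actb, 1.35-fold, the last with a call lost in 5 of 7 fits without 1 replicate. Of 15 tested genes on the list of iron and haem handling, the ferritin chains Ftl1 (5.88-fold) and Fth1 (2.02-fold) fell. Transferrin, Trf (2.04-fold), rose. Hpgd (7.66-fold), which rose too, is on this list but encodes an enzyme that degrades prostaglandins. Ftl1 had 723, 542, 490 and 439 CPM in forebrain and 93.1, 99.9 and 86.8 CPM in cortex, without overlap. Ferritin too has near-identical copies in the genome. The calls of Fth1 and Trf were lost in 4 and 5 of 7 fits without 1 replicate, and that of Hpgd without cortex replicate 1 (edgeR adjusted p = 0.0555). Of 20 tested integrin and adhesion genes, Selplg, Itgb2 and the junctional molecule Jam2 (3.87-fold) rose, and the proteoglycan Sdc4 (7-fold) fell. Without cortex replicate 1 Sdc4 did not pass (edgeR adjusted p = 0.0839), and without replicate 3 its log2 change was -3.50.

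**Figure D4:**
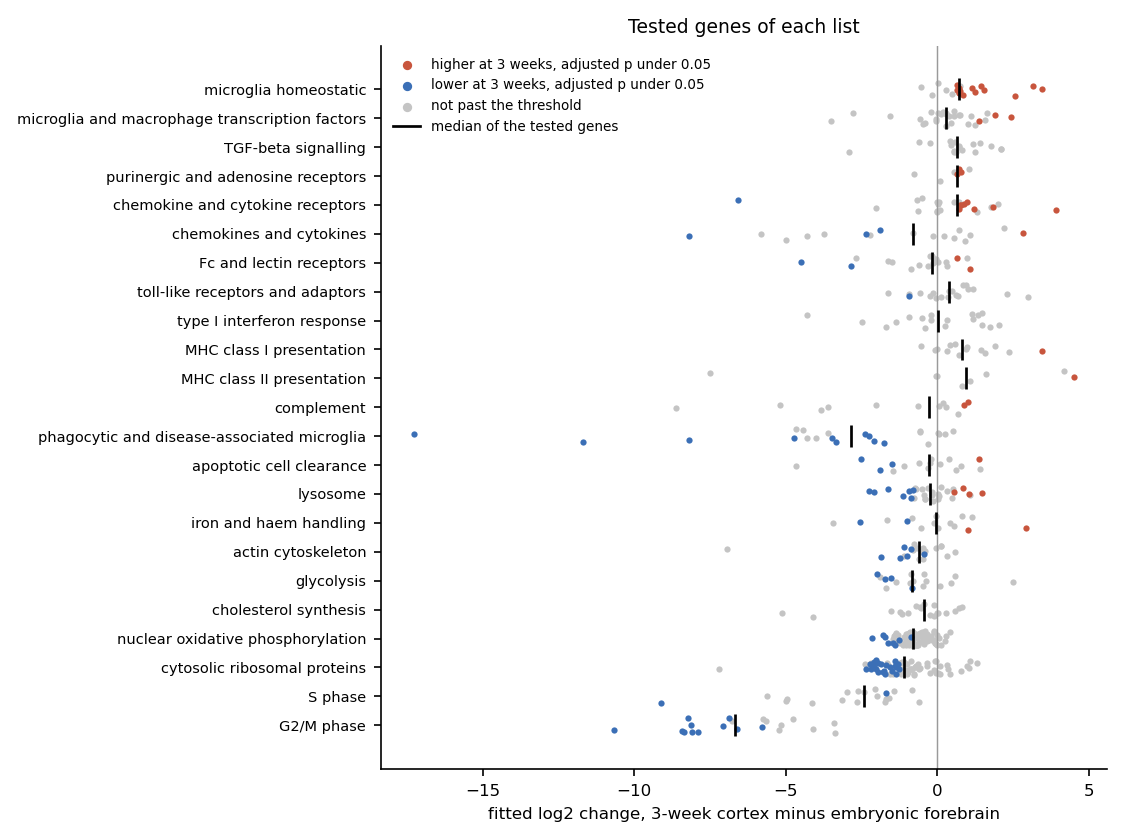
Fitted log2 change of 3-week cortex against embryonic forebrain (x axis) for every tested gene of 23 gene lists (y axis), with genes that passed in red (higher) or blue (lower), the others in grey and each list's median as a black tick. Homeostatic genes sit mostly right of 0, and phagocytic, G2/M and ribosomal genes left of it. For genes at 0 in all cortex replicates, such as Spp1 at -17.27, the fitted value depends on the prior count and is no bound.

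Single-cell totals moved with these groups. At 44117 reads per cell, the median number of detected genes was 2879, 3268, 3216 and 3174 in the forebrain replicates and 2402, 2395 and 2278 in the cortex replicates (3134 ± 174.5 against 2358 ± 70.0, SD). The median mitochondrial share of a cell's counts was 2.76%, 2.25%, 2.40% and 2.15% in forebrain and 0.767%, 0.838% and 0.658% in cortex. Neither measure overlapped between groups, and both had an exact permutation p of 0.0286, also after adjustment. Whether cell size, RNA content or plate took part in the lower ribosomal and respiratory genes was not tested.

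The genes with the largest fitted changes had few or no reads in 1 of the groups. Among those higher in cortex, Mlph, the melanophilin of vesicle transport (chromosome 1, 90915085 to 90951142), had 0, 0, 0.0856 and 0 CPM in forebrain and 21.1, 53.1 and 108 CPM in cortex. With 1 forebrain read the ratio of summed, depth-scaled reads was 3264-fold with a counting interval of 585 to 129000 (edgeR adjusted p = 0.0011). Thrsp, a regulator of lipid synthesis (chromosome 7, 97412938 to 97417730), had 0, 0, 0 and 0.234 CPM in forebrain and 89.3, 50 and 113 CPM in cortex (edgeR adjusted p = 0.0011). Reads of Thrsp occurred in 24.4% to 32.6% of cortex cells and at most 2.5% of cells in a forebrain replicate.

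Tgm2, transglutaminase 2, had 0, 0, 1.20 and 0 CPM in forebrain and 107, 148 and 162 CPM in cortex (edgeR adjusted p = 0.0056), with reads in 30% to 34.1% of cortex cells and 0% of forebrain cells. Csmd3 had 3.75, 0.970, 1.71 and 0.761 CPM in forebrain and 60.8, 202 and 248 CPM in cortex, 94.1-fold higher (edgeR adjusted p = 0.00154). Slco4a1 and Lrrc3 rose 30.2-fold and 30.1-fold. Other genes named by this rule were Sult1a1, Rab6b, H2-Ob, P3h2 and Fam167b, each of which lost its call without at least 1 replicate, whereas Mlph, Thrsp, Tgm2, Csmd3, Slco4a1 and Lrrc3 kept theirs.

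Among the genes with the largest decreases, Gpx3, a secreted glutathione peroxidase (chromosome 11, 54902453 to 54910377), had 397, 546, 227 and 232 CPM in forebrain and 1.80, 0 and 0 CPM in cortex, 540-fold lower (edgeR adjusted p = 0.00165). It had reads in 69.0% to 82.9% of forebrain cells and in 0% to 2.5% of cortex cells, so the transcript was spread over most forebrain cells. Ttyh2, a chloride channel family member, had 248, 165, 193 and 279 CPM in forebrain and 0, 3.90 and 0.119 CPM in cortex (174-fold lower, edgeR adjusted p = 0.00771), and reads in 65% to 69.0% and 0% to 4.88% of cells. Emid1 was at least 640-fold lower, Abcg3 453-fold, Gsn (gelsolin) 308-fold and Pla2g7, which degrades platelet-activating factor, 140-fold. The heparanase Hpse, at least 519-fold lower, lost its call when any 1 of the 3 cortex replicates was left out. Spp1, Igf1, Rrm2, Aurkb and the Y-linked Eif2s3y completed the list. With so few cortex reads 1 library set the size of several folds: the log2 change of Gpx3 was -9.08, and -14.98 without cortex replicate 1, while without cortex replicate 2 those of Ttyh2, Abcg3 and Gsn moved from -7.45, -8.82 and -8.27 to -11.66, -13.50 and -12.40.

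Markers of other cells were summed per replicate. The 15 border macrophage markers summed to 372 to 1122 CPM in the forebrain replicates and 279 to 501 CPM in cortex. Mrc1, which encodes CD206 and was stained in the sort, had 35.7, 232, 36.2 and 225 CPM in forebrain and 54.9, 0 and 0 CPM in cortex (edgeR adjusted p = 0.486, groups overlapping). Pf4 and Lyve1 were at or under 0.428 CPM in every replicate. Of the 7 border markers tested 1 passed as lower, Colec12, at 4.62 to 11.4 CPM in forebrain and 0 CPM in cortex. Its call was lost in 7 of 7 fits without 1 replicate. All 7 had a negative fitted change, with a median log2 change of -4.41. Of them 4 had an unadjusted p under 0.05 in edgeR (2057 of all 12339 genes tested). In 4 every cortex replicate was below every forebrain replicate, as in 10.6% of all genes tested. Of 12 monocyte markers 4 were tested and 0 passed in edgeR or DESeq2 (0 at an unadjusted p under 0.05), with sums of 18.1 to 32.3 and 17.7 to 30.0 CPM.

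Astrocyte markers summed to 6.49 to 35.1 CPM in forebrain and 145 to 299 CPM in cortex, where most of it was Slc1a3, which had 1.80, 31.1, 34.3 and 9.19 CPM in forebrain and 128, 298 and 146 CPM in cortex (edgeR adjusted p = 0.0596). Oligodendrocyte markers summed to 104 to 163 and 159 to 233 CPM, endothelial and mural markers to 42.6 to 98.9 and 74.5 to 140 CPM, and T and NK cell markers to 0 to 2.57 and 1.67 to 8.42 CPM. The sums of erythroid markers (18.7 to 102 against 1.23 to 7.02 CPM) and neural progenitor markers (10.8 to 45.0 against 0.673 to 3.33 CPM) were higher in every forebrain replicate, and those of neuron markers overlapped (5.62 to 55.5 against 1.91 to 17.4 CPM). Of neural progenitor markers Nes, nestin, was at least 183-fold lower in cortex. Among B cell markers Ighm fell 1.98-fold, from 1246, 1054, 1167 and 949 CPM to 619, 537 and 517 CPM. Most of the B cell sum (1062.5 to 1357 against 550 to 681 CPM) was Ighm. Neutrophil markers summed to 371 to 537 CPM in forebrain and 704 to 921 CPM in cortex. Almost all of this was Csf3r (371 to 537 against 704 to 919 CPM), the 1 marker tested, higher as given above. The sums of astrocyte, erythroid, neural progenitor, B cell and neutrophil markers did not overlap between groups. The part of these cells' RNA in the changes above was not tested.

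The age change was then set against that of other regions, by testing the difference of changes from embryonic age to 3 weeks in 1 fit over 14 samples. In 44 of 15009 genes (0.293%) the change from forebrain to cortex differed from that of the cerebellum, 22 in each direction (0.147%). In 44 of 15560 genes (0.283%) it differed from that of the spinal cord, 11 higher (0.0707%) and 33 lower (0.212%). Both sets use the same forebrain and cortex samples, and the 6 groups lie on 5 plates, so region and plate cannot be told apart at either age. The first count fell to 26 without forebrain replicate 2 and to 29 without cortex replicate 1, cortex replicate 3 or embryonic cerebellum replicate 3, and the second to 26 without cortex replicate 3.

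Cst3 rose further from forebrain to cortex than in the cerebellum, by a log2 change of 3.15 against 1.80 (difference 1.35 ± 0.15 SE, edgeR adjusted p = 0.00141), and than in the spinal cord (difference 0.95 ± 0.15 SE, adjusted p = 0.0108). Crybb1, a beta-crystallin expressed by microglia, differed from both regions. It did not pass from forebrain to cortex (log2 -0.56) but fell by 3.15 on the log2 scale in the cerebellum and by 2.93 in the spinal cord, and the differences were 2.59 ± 0.29 SE and 2.36 on the log2 scale (edgeR adjusted p = 0.00141 and 0.0035). Its 3-week levels were 385, 336 and 278 CPM in cortex and 61.6, 73.8 and 44.6 CPM in cerebellum, without overlap.

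The C1q genes differed from the spinal cord as a trio, C1qa by 0.91, C1qb by 0.96 and C1qc by 0.93 on the log2 scale. C1qa changed by 0.87 from forebrain to cortex and by -0.04 in the spinal cord, with corresponding values of 0.28 and -0.68 for C1qb and 0.05 and -0.88 for C1qc (edgeR adjusted p for the differences 0.00713 to 0.00765). Ccl9 moved in opposite directions, by -1.92 from forebrain to cortex and by 1.40 in the spinal cord (difference -3.33 ± 0.41 SE, edgeR adjusted p = 0.0035), a call lost without the wells of plate columns 1 and 2 (adjusted p = 0.358). The actin regulator Cfl1 fell less from forebrain to cortex than in the cerebellum (-1.11 against -2.68), and creatine kinase Ckb changed by 0.40 against -1.39.

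In the other direction, the nuclear RNA Malat1 changed by 0.33 from forebrain to cortex and by 1.85 in the cerebellum, with a like difference against the spinal cord (-1.27). Rsrp1 changed by -0.11 and 1.53, the protease Ctsc by 0.30 and 1.83, and the adhesion receptor Cd84 by -0.89 and 1.01 (edgeR adjusted p for the differences from cerebellum 0.0046 to 0.00621). By contrast the differences for Selplg (0.32 ± 0.17 SE) and Apoe (-0.55 ± 0.26 SE) from the cerebellum did not pass. Other genes named above also differed. From the cerebellum these included Actb (difference 1.07), Spi1 (1.42), Sparc (0.92), Gpr34 (-1.04) and Lpl (-4.57), and from the spinal cord Cfl1 (1.06), Actb (0.74), P2ry13 (-0.80), Gpr34 (-1.40) and Ctsl (-1.71), all on the log2 scale. Spp1 differed from the spinal cord, where its log2 change was -4.08, but in both comparisons its fitted difference depends on the prior count because cortex had 0 reads. In a scaling over all 14 groups its 3-week levels were 92.9 to 3373 CPM in cerebellum, 54.7 to 85.2 CPM in spinal cord and 0 CPM in cortex.

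**Figure D5:**
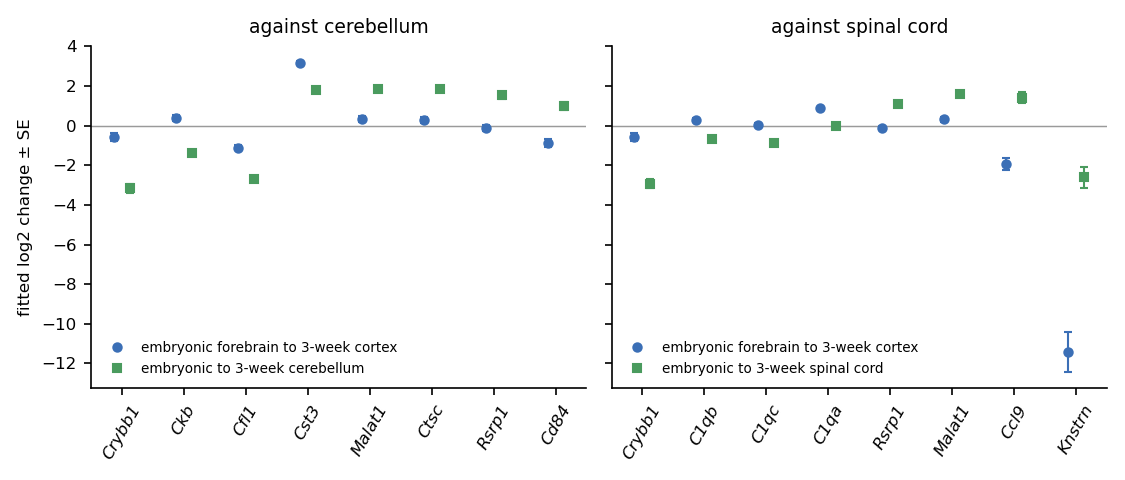
Fitted log2 change from embryonic age to 3 weeks (y axis) ± SE for the genes named by the rule for differences, from forebrain to cortex (circles) and in cerebellum or spinal cord (squares). Cst3 is above 0 in both changes of its panel, Crybb1 is near 0 from forebrain to cortex and far below 0 elsewhere, and Knstrn rests on 0 reads in cortex, so its fitted value depends on the prior count.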

How the data were processed

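Single microglia had been sorted into 384-well plates and sequenced by SmartSeq2. In the deposited table each value is a raw count of reads for 1 gene in 1 well. Per the submitters' processing notes, the tools were STAR 2.5.2b and featureCounts 1.6.2 and the build was GRCm38. Strand use is not given in the sources used here. Gene positions and lengths in bases stand beside the counts, per the file headers, and lengths entered no test. Of 2688 wells, 28 are blanks, and 0 well names occur more than once.

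The wells of plate columns 1 and 2 contained the counts of same-row wells whose names begin alike. These were subtracted from 224 wells, which left 0 of 1960623 gene rows below 0 (63.0% when the next row's wells were subtracted instead). In the comparison these wells gave 31 of 47 cells of forebrain replicate 1 and 29 of 58 of cortex replicate 1. Cells were kept as described, without a doublet caller, and summed per replicate, and 7 samples entered the fit. edgeR 4.0.16 (R 4.3.3) was run with TMM scaling, filterByExpr by group and two-sided, robust quasi-likelihood tests. P-values were adjusted by Benjamini and Hochberg's method over every gene tested, at a threshold of 0.05. P-values measure the spread between these samples. Each SE was derived from the test, as the absolute log2 change divided by the square root of its F statistic, and is approximate. Alternatives used DESeq2 1.42.0, other scalings and filters, the counts as deposited, fits without each replicate and, chosen after seeing the data, only cells with Xist and no Y-linked reads. On simulated counts of the 12339 genes, the test recovered 12% of 2-fold and 82% of 4-fold changes and called 0.033% of unchanged genes. The simulation gave every gene the same dispersion and set changes only in genes above a minimum level. Its rates may not hold for genes with a wider spread or fewer reads. Samples held 7146319 to 16002461 counts.

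Genes were named by rule: the 12 largest changes in each direction among genes that passed, did not overlap and had at least 50 CPM in the higher group; up to 3 members per list in the direction with more calls and 1 in the other; 9 fixed genes; and for each difference of age changes the 4 smallest adjusted p-values in each direction. Other members were named after their values were seen. The members and gene lists were chosen with earlier results of these data known. Some genes that the rule names are not reported here.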

Additional observations from a re-analysis of the deposited data

Results flagged for a closer look

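In 9 of the 85 named genes 1 forebrain replicate stood apart from the other 3 by Dixon's criterion for 4 samples. Chance meets it in about 1 of 20 groups if values are normally distributed. In Tgm2, Mlph and Thrsp the other 3 replicates had 0 CPM, so any reads in the fourth met the criterion. Spp1 was at 5506 CPM in replicate 3, the nearest other replicate being at 938 CPM. Replicate 3 was also highest for Cxcl16 (19.6 against 9.44 CPM), Tgm2 (1.198 against 0 CPM) and Mlph (0.08558 against 0 CPM). Replicate 4 was highest for Elmo1 (624.9 against 442 CPM) and Thrsp (0.2341 against 0 CPM) and lowest for Ctsz (3808 against 4323 CPM). Replicate 1 was highest for Rps3 (1380 against 1049 CPM) and for Sdhd, a subunit of succinate dehydrogenase (231.2 against 133 CPM).

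Among the genes named for these differences, the change from forebrain to cortex differed from that of the cerebellum by log2 differences of 1.35 for Cst3, 2.594 for Crybb1, 1.573 for Cfl1, 1.791 for Ckb, -1.632 for Rsrp1, -1.525 for Malat1, -1.534 for Ctsc and -1.902 for Cd84. It differed from that of the spinal cord by 2.363 for Crybb1, 0.9096 for C1qa, 0.9337 for C1qc, 0.9577 for C1qb, -3.325 for Ccl9, -1.272 for Malat1, -1.193 for Rsrp1 and -8.829 for Knstrn, the last resting on 0 reads in cortex.

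Of 28 blank wells, 3 would have passed the filter for cells, with 2345 detected genes in a blank on the cortex plate and 618 and 2069 in blanks of another plate. None of these 28 wells reached 5 G2/M genes.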

How the results depend on the processing

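The direction of all 81 named genes that passed was kept under every alternative that gave a value, and 34 of them passed under every alternative listed at the outset. The count of 483 genes became 829 with the counts as deposited, 280 without the wells of plate columns 1 and 2, and 1336 with DESeq2. It became 866 with no filter on low counts and 319 without cells with reads of 5 or more G2/M genes before thinning. It was 48 with only Xist-positive cells without Y-linked reads, and 252 to 408 without 1 replicate. The count of 44 genes differing from the cerebellum became 74 with the counts as deposited, 495 with DESeq2, 252 with no filter and 26 to 47 without 1 replicate. The count of 44 differing from the spinal cord became 19 without plate columns 1 and 2, 364 with DESeq2, 231 with no filter and 26 to 47 without 1 replicate. With the replicate number as a block the counts were 165, 33 and 31, and 0 G2/M genes passed. The numbers do not mark a shared animal between ages, and same-numbered samples had correlations of -0.0288, -0.003 and -0.0209 of their deviations. On the counts as deposited the share of cycling cells differed by -22.77 percentage points (exact permutation p = 0.0571) and detected genes per cell by -622.8 (exact permutation p = 0.514). Without 1 replicate the difference was -13.92 to -16.31 percentage points for cycling cells, -731.3 to -861.2 for detected genes and -1.511 to -1.716 percentage points for the mitochondrial share, where the exact test cannot go below 0.0667 or 0.1. The log2 change of Sall1, which did not pass, reversed to -0.05157 with the counts as deposited and to -0.1651 without cortex replicate 1 (0.4884 without replicate 3), and that of Xist to -0.2422 in Xist-positive cells. The difference of Rsrp1 from the spinal cord had an edgeR adjusted p of 0.0515 with the counts as deposited. The cause of these shifts was not tested. In simulated data for the differences between regions, made with the same settings, 33% (cerebellum) and 24% (spinal cord) of 4-fold differences were recovered.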

Other observations

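Across the groups of the series, scaled together, several genes of the comparison had other levels at 16 weeks than at 3 weeks. Cst3 averaged 57326 CPM in 3-week cortex and 34921 ± 4070 CPM (SD, n = 4) in 16-week cortex, Apoe 2104 and 599 CPM, Crybb1 329 and 97.5 CPM, and Csmd3, which had risen from forebrain, 168 and 653 CPM. Gpx3 lay between 110.7 and 560 CPM in all replicates of the 4 embryonic regions and at or under 9.52 CPM in the replicates of 3-week regions and of 16-week cortex. Selplg lay between 491 and 1023 CPM in the embryonic replicates and between 5367 and 10165 CPM in the 3-week replicates. No test was made of these values, and ages lie on different plates.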
